A study of Homo sapiens with 34 samples.

Results

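HNRNPD, also called AUF1, and 9 further genes for proteins that bind AU-rich elements were followed across all 17 guide groups of an RNA-sequencing study in hTERT RPE-1 cells, an immortalised human retinal pigment epithelium line. The genes were taken by symbol as HNRNPD, its relatives HNRNPDL and HNRNPAB, ELAVL1, KHSRP, the zinc-finger family ZFP36, ZFP36L1 and ZFP36L2, and TIA1 and TIAL1. They are 10 of 62269 genes in the authors' expression table, and 10 of 29324 genes with an intron in the authors' splicing table. That splicing table lists 375 events for them out of 721536.

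Every culture carried a hybrid guide RNA (hgRNA), which joins a Cas9 guide to a Cas12a guide so that both nucleases cut in the same cell. In the HNRNPD deletion both guides lay in an intron of HNRNPD, and this was the only hgRNA for the gene. The other deletions were made with 2 hgRNAs each, and comprised an intronic deletion in DDX5, deletions across a premature termination codon (PTC) exon of DDX17 and of HDAC7, and an intronic deletion in FNBP4 (hgRNAs 1 and 2) as well as one across a PTC exon of FNBP4 (hgRNAs 3 and 4). The knockouts, of DDX5, DDX17, FNBP4 and HDAC7, used a Cas9 guide in an exon together with a Cas12a guide in intergenic DNA. Controls carried hgRNAs with both guides in intergenic DNA, of which there were 2. Both HDAC7 deletion hgRNAs had the same Cas9 guide, as had FNBP4 hgRNAs 2 and 3, and the label of the HDAC7 knockout lists the Cas9 guide of the FNBP4 knockout in both of its positions. All groups, controls included, received lentivirus with less than 1 particle per cell, puromycin at 20 µg/ml for 72 h and 4 further days of growth. The labels name no clones. Each group had 2 biological duplicates, so p-values rest on 2 or 4 edited libraries against 4 control libraries.

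AU-rich elements are stretches of A and U, often with the pentamer AUUUA, in the 3′ untranslated regions of short-lived mRNAs for growth factors, cytokines and cell-cycle regulators. Proteins that bind them decide how long such an mRNA lasts and how well it is translated. ZFP36 family proteins recruit the CCR4-NOT deadenylase and KHSRP recruits decay enzymes, whereas ELAVL1 (HuR) mostly stabilises its targets, TIA1 and TIAL1 repress translation and also regulate splicing, and HNRNPD can act either way. HNRNPD makes its protein isoforms by including or skipping exon 2 and exon 7. Several of these genes carry AU-rich elements or PTC exons of their own and are known to limit their own mRNA.

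The sequences of the HNRNPD edit are shown because every result on HNRNPD splicing refers to them. Guides come from the labels, and exons from GENCODE v29 transcripts on GRCh38, in which HNRNPD lies on the minus strand of chromosome 4 (82352498 to 82374503) and its main transcript has 9 exons. Capitals mark the PAM beside each guide and, in exon 8, the stop codon.
Cas9 guide, chr4:82356336-82356355, minus strand: ataagggtagggtgtatgtgTGG
Cas12a guide, chr4:82355728-82355750, plus strand: TTTAgaacaaattgtcaaccacaatca
Exon 2, 57 nt, chr4:82371528-82371584, minus strand: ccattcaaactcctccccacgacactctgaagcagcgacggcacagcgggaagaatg
Exon 7, 147 nt, chr4:82356537-82356683, minus strand: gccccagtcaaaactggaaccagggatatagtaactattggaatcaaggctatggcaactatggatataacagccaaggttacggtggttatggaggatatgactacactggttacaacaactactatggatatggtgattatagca
Exon 8, coding part of 68 nt from an exon of 98 nt, chr4:82355304-82355401, minus strand: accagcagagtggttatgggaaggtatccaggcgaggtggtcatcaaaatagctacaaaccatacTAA
Both guides lie inside intron 7, of 1135 nt, with 585 bases between them. The Cas9 guide starts 182 bases after exon 7, and the Cas12a guide ends 327 bases before exon 8.

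Libraries held 12353936 to 20233610 spliced-junction reads. Levels are given as a gene's reads across its own spliced junctions scaled to the library (CPM, with TMM factors), which compare libraries for a gene but not genes with each other. Of the markers of retinal pigment epithelium, KRT8 (460 to 982 CPM over libraries), KRT18 (279 to 696), MITF (9.14 to 24.1) and OTX2 (1.86 to 8.07) were present in every library. The visual-cycle gene RPE65 (0 to 0.368 CPM) and TTR (0 to 0.0676) were near 0. RLBP1, LRAT, BEST1 and TYRP1 were also near 0, with highest values of 0.167, 0.334, 0.339 and 0.602 CPM. The filter on low counts was passed by 6 of 12 pigment epithelium markers and 2 of 9 markers of other cell types. PMEL and SERPINF1, the remaining markers among these 6, were low, with medians of 0.466 and 0.262 CPM. The 2 of other cell types, PTPRC and PECAM1, had medians of 0.505 and 0.140 CPM. Among the edited genes, DDX5 fell in the DDX5 deletion and the DDX5 knockout, DDX17 fell in the DDX17 knockout, and FNBP4 rose in the FNBP4 PTC exon deletion, by 1.63 on the log2 scale. For the other 6 pairs of edited gene and comparison, the FNBP4 and HDAC7 knockouts among them, no change passed the test. Replicate 2 of DDX17 deletion hgRNA 1 and of HDAC7 deletion hgRNA 1 stood apart with 8.54 and 8.05% of intron reads unspliced, against 4.66 to 6.43% in the other deletion and control libraries. Differences between duplicates correlated across genes at 0.518 to 0.663 among these 2 groups and control hgRNA 1. Replicate 1 of the knockouts had 2.79 to 3.58%, against 4.81 to 5.32% in replicate 2. FNBP4 deletion hgRNA 3 replicate 1 stood apart for several of the 10 genes.

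In the HNRNPD deletion the spliced HNRNPD message was no lower than in controls. HNRNPD had 247 and 318 CPM in HNRNPD deletion libraries, against 253, 207, 208 and 252 CPM in controls. The ranges overlapped. The mean was 283 ± 49.9 CPM in the deletion (SD, n = 2) and 230 ± 25.9 CPM in controls (SD, n = 4), a log2 fold change of 0.29 with SE 0.13 that did not pass the test (limma adjusted p = 0.188). Since the targeted sequence is intronic and leaves no mark in spliced reads, this level does not check the label.

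What did differ at the edited locus was the splicing of 2 constitutive exons. Exon 8, the exon downstream of the cut sites, was skipped by 38 and 65 junction reads in HNRNPD deletion libraries, against 0 reads in each of the 4 controls. Exon 5, of 132 nt (chr4:82357313-82357444), upstream of the edited intron, was skipped by 23 and 37 reads in HNRNPD deletion libraries and by 0 in each control. No library outside the HNRNPD deletion had more than 2 skipping reads for either exon. In the 32 libraries without the HNRNPD edit there were 13 skipping reads for exon 8, and 20 libraries had none. For exon 5 there were 6, and 27 libraries had none.

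As shares, exon 8 skipping came to 4.16% (95% Wilson interval 3.21 to 5.38%) and 6.09% (4.99 to 7.35%) in HNRNPD deletion replicates 1 and 2. For exon 5 the shares were 3.09% (2.27 to 4.127%) and 4.83% (3.84 to 6.14%) in the same replicates. In controls, 3 reads over the total would be 0.182 to 0.248% for exon 8 and 0.191 to 0.270% for exon 5, depending on the library. A skipping read weighs more than this in the shares. In HDAC7 deletion hgRNA 2 replicate 2, 2 skipping reads of exon 5 gave 0.360%, where 3 reads over the total would be 0.297%. The control counts of 0 therefore allow more skipping than these values. The intervals cover counting error only, and they are too narrow because they use these weighted reads. Mean exon 8 inclusion was 94.9 ± 1.36% in the HNRNPD deletion (SD, n = 2) and 100% in controls (n = 4), with a limma adjusted p of 0.000359. Exon 5 had an adjusted p of 0.000438. Both shifts were smaller than the 10 points asked of a called event, so neither was called.

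By p-value these 2 exons ranked high among all events tested, which is not a rank of size. Of 286953 events tested in this comparison, 9 (0.00314%) had an adjusted p under 0.05 when no size limit was set, and HNRNPD exon 8 had the smallest p of all while exon 5 was the third. The other 7 were in COPS3, PDK1, EPS15, VSIG10, MFN2 and EP400, the last with 2 events. All of the 9 but the VSIG10 event (88.6%) were at 100% inclusion in controls, and shifts of a few points passed there. With the limit of 10 points, 1 event was called (0.000348%), in VSIG10, and none of the 265 tested events of the 10 genes was. Of those 265, 20 had an unadjusted p under 0.05.

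**Figure D1:**
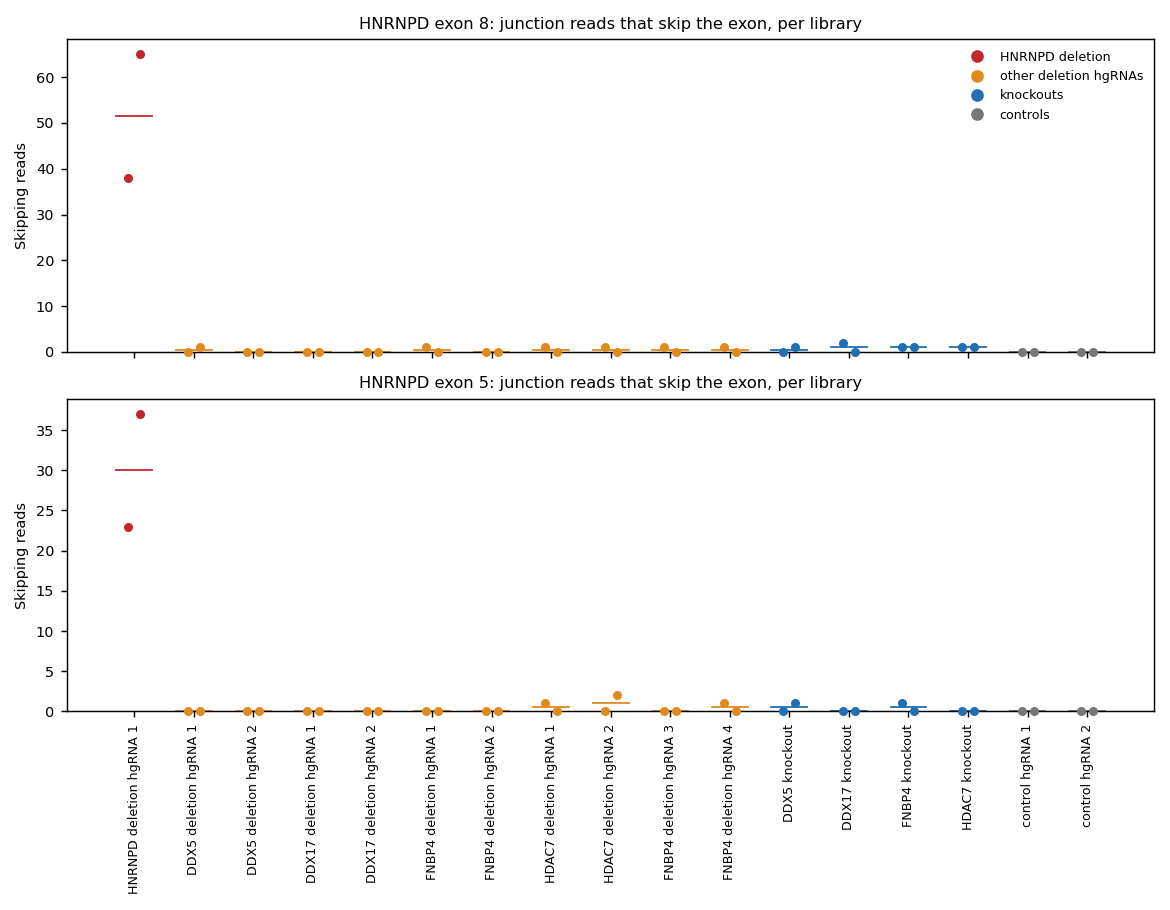
Junction reads that skip HNRNPD exon 8 (top) and exon 5 (bottom) in each of the 34 libraries, with 2 libraries per guide group as points and their mean as a line. The HNRNPD deletion libraries had 38 and 65 reads for exon 8 and 23 and 37 for exon 5, and no other library had more than 2.

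Exon 6, between exon 5 and the alternative exon 7, was skipped by 9 reads in HNRNPD deletion replicate 1 and by 0 in replicate 2, against 0 in each control. Retention of the edited intron 7 was low throughout. It was 1.04 and 0.481% in HNRNPD deletion libraries, against 0.560, 0.370, 0 and 0.261% in controls (adjusted p = 0.738), and 1.04% was the highest of the 34 libraries. An exon of 71 nt in intron 8 (chr4:82354931-82355001) was included at 1.38 and 0.80% in the HNRNPD deletion, and at 0.42, 0.14, 0.42 and 0.36% in controls (adjusted p = 0.395). The remaining 28 libraries had 0.15 to 0.96%.

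Neither of the 2 exons that set the protein isoforms passed a test in the HNRNPD deletion. For exon 7 the test could not have passed with 2 against 4 libraries. Exon 2 was included at 88.5 and 85.8% in HNRNPD deletion libraries, against 88.1, 85.9, 91.8 and 89.9% in controls. Exon 7, which the edited intron follows, had a share of 66.2 and 66.1% in the deletion, against 62.4, 70.9, 65.4 and 64.8% in controls, counted as reads leaving exon 7 over these plus reads that skip it, whatever exon they reach. The deletion libraries lay inside the control range for exon 7 and within or below it for exon 2. The mean difference for exon 7 was 0.26 points (two-sided exact permutation p = 1). These counts include the reads that skip exon 8. Among reads that reach exon 8, a count chosen after the values were seen, the exon 7 share was 69.7 and 68.0% in the deletion, against 62.5, 70.96, 65.4 and 64.9% in controls. That difference was 2.94 points (two-sided exact permutation p = 0.333, where 2 against 4 libraries cannot reach 0.05), and both deletion libraries were again inside the control range.

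Exon 7 was lowest after the FNBP4 PTC exon deletion. Its share was 60.5, 61.3, 61.9 and 62.4% there, against 62.4, 70.9, 65.4 and 64.8% in controls, a difference of -4.31 points. The two-sided exact permutation p was 0.0571 (n = 4 each), and 0.571 after adjustment over 10 comparisons. With so few libraries no adjusted value of this test could have fallen under 0.05, so it cannot decide. Exon 2 was included at 81.1 ± 6.81% in that deletion and 88.9 ± 2.54% in controls (SD, n = 4 each) (limma adjusted p = 0.279). One library, FNBP4 deletion hgRNA 3 replicate 1, was at 71.9% and had the most exon 2 skipping reads of the 34. DDX17 deletion hgRNA 1 replicate 2 had the highest exon 7 share, 83.7%.

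**Figure D2:**
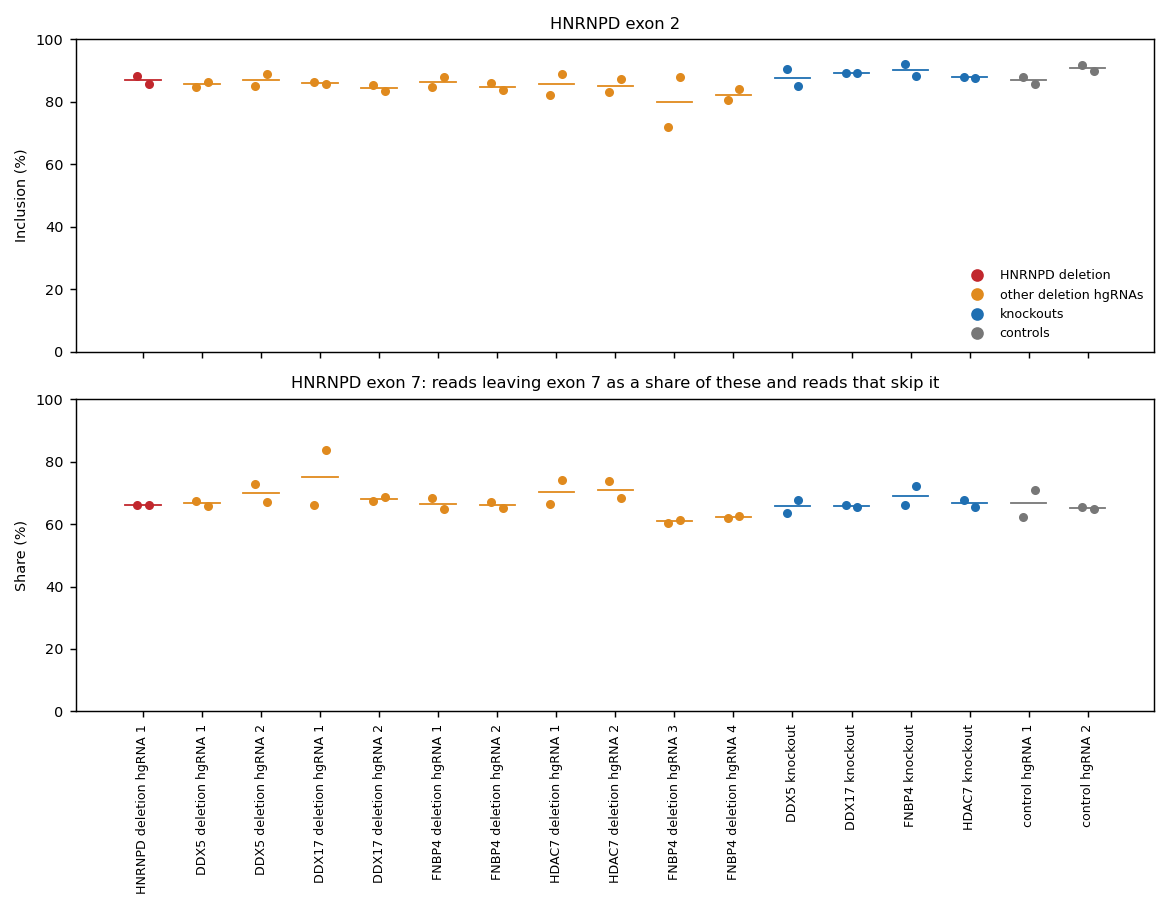
Inclusion of HNRNPD exon 2 in percent (top) and the exon 7 share in percent (bottom) in each library, with 2 libraries per guide group as points and their mean as a line. Exon 7 lies between 60.5 and 62.4% in the FNBP4 deletion hgRNA 3 and 4 libraries, and exon 2 is lowest, at 71.9%, in one library of hgRNA 3.

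Across guide groups the HNRNPD level changed little. Group means ran to 345 CPM in FNBP4 deletion hgRNA 3, 297 in the DDX17 knockout and 283 in the HNRNPD deletion at the high end, and to 188 CPM in HDAC7 deletion hgRNA 1 at the low end. The ratio of highest to lowest was 1.84. HNRNPD rose in the FNBP4 PTC exon deletion, the 1 comparison of 10 in which it was called. It had 408, 282, 267 and 288 CPM there, against 253, 207, 208 and 252 CPM in controls, with no overlap. The log2 fold change was 0.42 with SE 0.11 (limma adjusted p = 0.00705). Without hgRNA 3 replicate 1 it was 0.26 and the call was lost (adjusted p = 0.0915). It was also lost without control hgRNA 1 replicate 2 (0.32, adjusted p = 0.0745) or control hgRNA 2 replicate 1 (0.35, adjusted p = 0.0517), with the FNBP4 and control libraries fitted alone (adjusted p = 0.0622), and when reads of a single intron were used (adjusted p = 0.238).

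HNRNPD also lay above every control in 2 knockouts without being called. It had 282 and 312 CPM in the DDX17 knockout (log2 fold change 0.37, adjusted p = 0.163) and 263 and 278 CPM in the FNBP4 knockout (0.24, adjusted p = 0.283). Whether these differ from the FNBP4 PTC exon deletion was not tested.

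Set directly against each other, the HNRNPD deletion and the FNBP4 PTC exon deletion differed in HNRNPD by a log2 fold change of -0.13 (adjusted p = 0.566). This and 2 further direct contrasts were chosen after the values were seen. In the deposited RPKM of the authors' deposited table, which pools replicates, HNRNPD ranged over edited groups from 98.35 to 146.64, with 115.69 in controls. The authors' deposited table gives a false discovery rate (FDR) under 0.05 for HNRNPD in 1 of 15 edited groups, FNBP4 deletion hgRNA 3, at a log2 fold change of 0.44 (FDR 0.0093).

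By the pattern of log2 CPM over the 17 group means, the genes most like HNRNPD among 6628 protein-coding genes compared were HNRNPU (Pearson r = 0.979, Spearman rho = 0.983), HNRNPR (r = 0.972, rho = 0.946) and WBP11 (r = 0.959, rho = 0.904). HNRNPU and HNRNPR are also nuclear RNA-binding proteins and WBP11 is a splicing factor. These values share libraries and depth, and are a description.

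Among the relatives of HNRNPD, HNRNPDL encodes a nuclear RNA-binding protein of the same subfamily from a neighbouring gene on chromosome 4 (82422564 to 82430408, minus strand). It was called in none of the 10 comparisons, with unadjusted p above 0.05 in each. HNRNPD deletion libraries had 194.9 and 243 CPM, against 220, 193, 199 and 218 CPM in controls. The highest value, 337 CPM, was in FNBP4 knockout replicate 2, whose duplicate had 188 CPM, so the groups' own spread was wide.

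HNRNPAB, another relative with the same pair of RNA-recognition domains, rose in the FNBP4 knockout. It had 246 and 214 CPM there, against 164, 164, 154 and 156 CPM in controls, a mean of 230 ± 22.4 (SD, n = 2) against 159 ± 5.32 (SD, n = 4). The log2 fold change was 0.52 with SE 0.13 (limma adjusted p = 0.0115). The call was lost without FNBP4 knockout replicate 1 (0.43, adjusted p = 0.226) and with a single intron per gene (0.73, adjusted p = 0.153). HNRNPAB was the only one of the 10 called in that comparison, where 8.2% of all genes were called. The authors' deposited table lists a log2 fold change of 0.55 (FDR 0.0051) there.

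HNRNPAB lay on the other side of the controls in the HNRNPD deletion and in FNBP4 deletion hgRNA 4. It had 126 and 143 CPM in the HNRNPD deletion, below all 4 controls, but the log2 fold change of -0.25 did not pass (adjusted p = 0.254). FNBP4 deletion hgRNA 4 had the lowest group mean, 115 CPM, while hgRNA 3 had libraries at 208 and 124 CPM. For hgRNA 4 the authors' deposited table gives -0.45 (FDR 0.0417). Against the other 14 edited groups together, HNRNPAB was lower in the HNRNPD deletion, by -0.38 (adjusted p = 0.0119), a contrast in which 25.8% of all genes were called. The FNBP4 PTC exon deletion set against the 12 edited groups other than the HNRNPD deletion gave -0.42 (adjusted p = 0.000158, with 47.8% of all genes called).

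A 141-nt exon of HNRNPAB (chr5:178210132-178210272), which separates its protein isoforms, varied more between duplicates than between groups. Inclusion ran from 30.6 to 82.3% over the 34 libraries and was 50.1, 68.4, 53.7 and 77.7% in controls. The duplicates of DDX17 deletion hgRNA 2 had 35.3 and 79.8%. The exon was called in no comparison.

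ELAVL1, which stabilises AU-rich mRNAs, was the steadiest of the 10, with a ratio of 1.35 between highest and lowest group mean. It had 79.1 and 82.9 CPM in the HNRNPD deletion, against 90.2, 98.2, 91.6 and 88.8 CPM in controls. Both deletion libraries were below the controls, but the log2 fold change of -0.19 did not pass (adjusted p = 0.411). DDX17 deletion hgRNA 1 replicate 2 was highest at 124 CPM, beside 88.1 CPM in its duplicate.

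KHSRP, a KH-domain protein that brings AU-rich mRNAs to the decay machinery, was called nowhere. It had 365 and 391 CPM in the HNRNPD deletion and 393 and 410 CPM in the DDX17 knockout, against 342, 272, 302 and 314 CPM in controls. Both edited groups lay above every control. The log2 fold changes were 0.30 (adjusted p = 0.205) and 0.39 (adjusted p = 0.169).

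The largest called change was in the zinc-finger family. ZFP36L2, an mRNA-destabilising protein, had 20.7 and 17.1 CPM in HNRNPD deletion libraries, against 9.30, 10.0, 7.46 and 6.04 CPM in controls. No other of the 34 libraries exceeded 12.6 CPM. The mean was 18.9 ± 2.57 CPM in the deletion (SD, n = 2) and 8.20 ± 1.79 CPM in controls (SD, n = 4). ZFP36L2 rose by a log2 fold change of 1.23 with SE 0.25 (limma adjusted p = 0.00255). It was the only one of the 10 called in the HNRNPD deletion, where 8.87% of all genes were called. The value stayed between 1.08 and 1.49 over 14 alternatives, and the call was lost without HNRNPD deletion replicate 1 (1.08, adjusted p = 0.0765).

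ZFP36L2 had the opposite sign in the other comparisons with controls, except the DDX17 knockout. That knockout had 10.5 and 9.79 CPM (log2 fold change 0.33, limma adjusted p = 0.586). In the HDAC7 deletion the value was near 0, at -0.08. ZFP36L2 fell in the DDX5 deletion, to 3.14, 4.05, 4.50 and 5.06 CPM, against 9.30, 10.0, 7.46 and 6.04 CPM in controls, without overlap. The log2 fold change was -0.96 with SE 0.25 (limma adjusted p = 0.0111). It was the only one of the 10 called there, beside 16.9% of all genes. The call was lost against control hgRNA 2 alone (-0.70, adjusted p = 0.213), without control hgRNA 2 replicate 1 (adjusted p = 0.0556) and without DDX5 deletion hgRNA 1 replicate 1 (adjusted p = 0.0609). The DDX5 knockout had 3.78 and 4.46 CPM, a log2 fold change of -0.97 that did not pass (adjusted p = 0.0572). Against the other 14 edited groups, ZFP36L2 averaged 18.9 CPM in the HNRNPD deletion and 6.05 CPM in those groups, a log2 fold change of 1.73 (adjusted p = 1.06e-06). This contrast was chosen after the values were seen, and 25.8% of all genes were called in it. These genes have few introns, so ZFP36L2 rests on 48 to 367 junction reads per library.

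The authors' deposited table, which counts whole transcripts, gives ZFP36L2 a log2 fold change of 0.55 (FDR 0.00047) in the HNRNPD deletion. It also gives values of -0.65 and -0.61 for the DDX5 deletion hgRNAs, -0.56 for the DDX5 knockout, -0.55 for the FNBP4 knockout and -0.50 to -0.52 for the DDX17 deletion and FNBP4 intron deletion hgRNAs, each with an FDR under 0.05. That makes 9 of 15 edited groups, the most of the 10 genes. After the FNBP4 PTC exon deletion the 2 measures differed in sign. Junction reads gave -0.29 (adjusted p = 0.369), while the authors' deposited table has 0.15 and 0.18 for hgRNAs 3 and 4.

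ZFP36 (tristetraprolin), the founding member and an immediate-early gene, was close to the limit of detection, with 0 to 19 junction reads per library. HNRNPD deletion libraries had 19 and 11 reads, 1.07 and 0.706 CPM, against 4, 8, 7 and 3 reads, 0.210 to 0.482 CPM, in controls. The log2 fold change of 1.56 with SE 0.54 did not pass (adjusted p = 0.0756). In the authors' deposited table ZFP36 has a log2 fold change of 0.72 (FDR 0.0218) in this group. DDX5 knockout replicate 1 and FNBP4 deletion hgRNA 1 replicate 1 had 0 reads.

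ZFP36L1 had 42.2 and 36.1 CPM in the HNRNPD deletion, against 25.1, 43.7, 35.8 and 22.8 CPM in controls, which overlapped (log2 fold change 0.35, adjusted p = 0.350). The authors' deposited table has 0.37 (FDR 0.0225). ZFP36L1 fell in the FNBP4 PTC exon deletion, to 11.8, 21.8, 23.8 and 22.6 CPM, by a log2 fold change of -0.65 with SE 0.19 (adjusted p = 0.0124), although 1 control library lay in the same range. Without hgRNA 3 replicate 1, the library at 11.8 CPM, the value was -0.47 and not called (adjusted p = 0.0842), and the call was also lost without control hgRNA 1 replicate 2 (-0.48, adjusted p = 0.0813) or control hgRNA 2 replicate 1 (-0.49, adjusted p = 0.0953). Without replicate 2 of hgRNA 1 of the controls, the DDX17 deletion and the HDAC7 deletion it was -0.47 (adjusted p = 0.0631). In all, this call was lost in 6 of the 16 alternatives tried. ZFP36L1 lay below controls in every comparison but the HNRNPD deletion. Outside the FNBP4 PTC exon deletion these values ran from -0.63 in the FNBP4 knockout to -0.16 in the HDAC7 deletion, none called. Set against the edited groups other than the HNRNPD deletion, the FNBP4 PTC exon deletion gave -0.30, which was not called (limma adjusted p = 0.103). The authors' deposited table does not list a fall there, with log2 fold changes of -0.13 (FDR 0.525) for FNBP4 hgRNA 3 and 0.02 (FDR 1) for hgRNA 4.

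The HNRNPD deletion was also set directly against other edited groups for the 3 zinc-finger genes. Relative to the FNBP4 PTC exon deletion, the HNRNPD deletion was higher in ZFP36L2 by 1.51 (adjusted p = 0.00136), in ZFP36L1 by 1.00 (adjusted p = 0.00774) and in ZFP36 by 1.88 (adjusted p = 0.0381), on the log2 scale, where 9.37% of all genes differed. Relative to the other 14 edited groups, ZFP36L1 was higher by 0.75 (adjusted p = 0.00334) and ZFP36 by 1.66 (adjusted p = 0.00445), where 25.8% of all genes differed. Both contrasts were chosen after the values were seen.

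TIA1 and TIAL1 encode related RNA-binding proteins of stress granules. TIA1 rose in the FNBP4 PTC exon deletion, with 45.3, 46.9, 40.5 and 43.1 CPM, against 33.7, 23.4, 24.9 and 28.2 CPM in controls, and the groups did not overlap. The mean was 44.0 ± 2.78 CPM in the deletion and 27.6 ± 4.58 CPM in controls (SD, n = 4 each), a log2 fold change of 0.68 with SE 0.20 (adjusted p = 0.0167). The call was lost without control hgRNA 1 replicate 2 (0.53, adjusted p = 0.112), control hgRNA 2 replicate 1 (0.64, adjusted p = 0.0675) or FNBP4 deletion hgRNA 4 replicate 2 (0.66, adjusted p = 0.0506), against control hgRNA 2 alone, and with a single intron. In the FNBP4 PTC exon deletion 3 of the 10 genes were called, HNRNPD and TIA1 higher and ZFP36L1 lower, beside 26.9% of all genes.

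The HNRNPD deletion had 36.8 and 41.3 CPM of TIA1, also above every control, but its log2 fold change of 0.51 did not pass (adjusted p = 0.230). The DDX5 knockout had the lowest group mean, with 14.2 and 20.6 CPM and a log2 fold change of -0.69 (adjusted p = 0.118), where the authors' deposited table gives -0.87 (FDR 0.0291). In bulk RNA, fewer cells that express a gene and less RNA per cell cannot be told apart. The single libraries DDX17 deletion hgRNA 1 replicate 2 and HDAC7 deletion hgRNA 1 replicate 2, the 2 with the most unspliced reads, had 14.02 and 14.6 CPM. TIAL1 was called in no comparison with controls. It was highest in FNBP4 deletion hgRNA 3 replicate 1 at 65.8 CPM, and HNRNPD deletion libraries, at 39.1 and 39.2 CPM, had the lowest group mean.

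**Figure D3:**
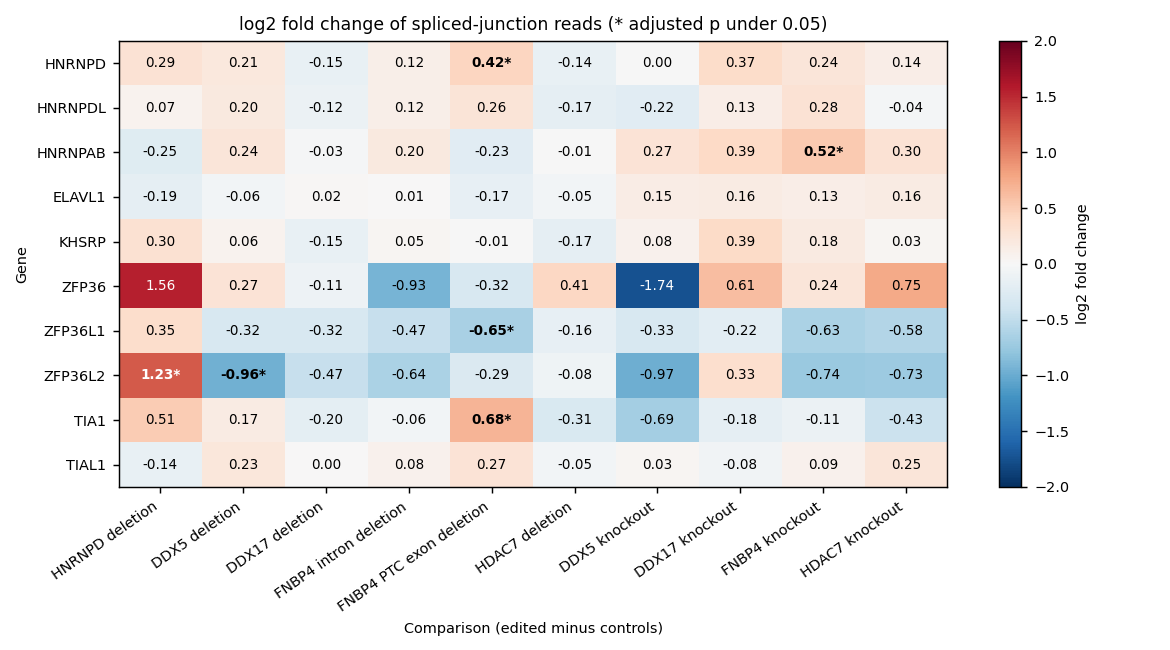
Log2 fold change of spliced-junction CPM, edited minus controls, for each of the 10 genes (rows) in each of the 10 comparisons (columns), with an asterisk where the limma adjusted p was under 0.05. ZFP36L2 is 1.23 in the HNRNPD deletion and -0.96 in the DDX5 deletion, and the FNBP4 PTC exon deletion column holds 3 of the 6 calls.

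Only 1 of the tested splicing events of the 10 genes was called in any comparison with controls. It was retention of a TIA1 intron of 3105 nt (chr2:70224630-70227734) in the DDX5 deletion, where 257 events of the 10 genes were tested. Retention was 6.66, 12.0, 15.6 and 16.4% there, against 43.7, 43.7, 27.3 and 30% in controls. The groups did not overlap, and the means were 12.7 ± 4.45% and 36.2 ± 8.79% (SD, n = 4 each), with an adjusted p of 0.0324. In this comparison 0.0206% of all events were called. The call was lost when any one of the 8 libraries was left out (adjusted p = 0.0562 to 0.136), and each of these 8 values rests on 23 to 46 reads. HNRNPD deletion libraries had 21.4 and 14.9% (adjusted p = 0.547). Knockout libraries had 0 to 20.0% from 13 to 37 reads. The values of 0 rest on 13 and 15 reads. The event was under the 20-read minimum, and so not tested, in the DDX5, FNBP4 and HDAC7 knockouts. It was also not tested in the HDAC7 deletion, where hgRNA 1 replicate 2 had 11 reads. In the DDX17 knockout it was 2.55 and 20.0% (adjusted p = 0.196). The share of unspliced intron reads in the whole library, also low in knockout replicate 1, is plotted beneath these values. Its part in the result was not tested. In the other comparisons no event of the 10 genes was called, beside 0.0105% of all events in the FNBP4 PTC exon deletion, 0.000411% in the DDX17 deletion and 0 in the FNBP4 intron and HDAC7 deletions. Among knockouts these shares were 0.00108% for DDX5, 0.00711% for DDX17, 0.00659% for FNBP4 and 0.00482% for HDAC7. Of the 10 genes' events, between 10 and 37 had an unadjusted p under 0.05 in a comparison, of 231 to 265 tested.

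**Figure D4:**
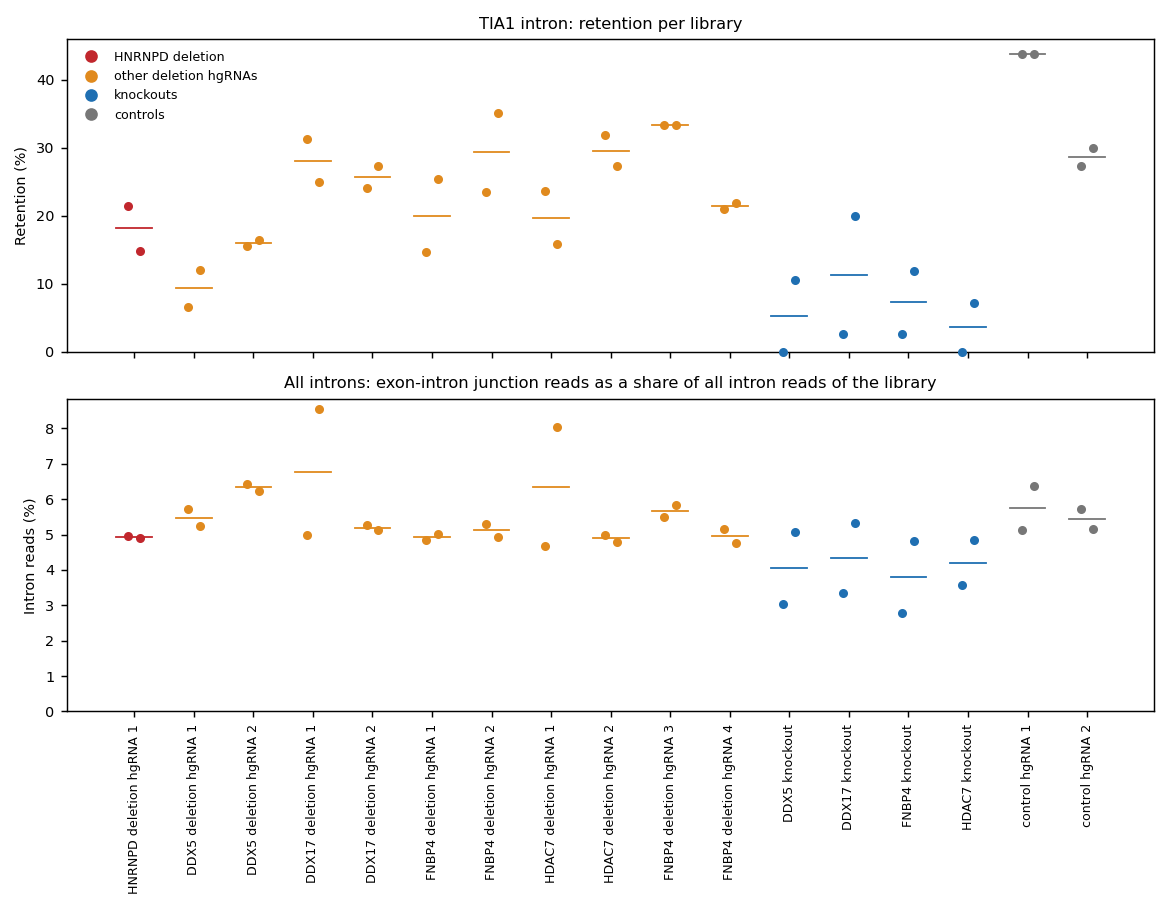
Retention in percent of the TIA1 intron (top) and the share of unspliced reads over all introns of the library in percent (bottom), with 2 libraries per guide group as points and their mean as a line. The 4 DDX5 deletion libraries lie between 6.66 and 16.4%, below all 4 controls, which lie between 27.3 and 43.7%.

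The remaining comparisons held no call among the 10 genes. None was called by limma in the DDX17 deletion (4.98% of all genes called), the FNBP4 intron deletion (3.53%), the HDAC7 deletion (1.9%), the DDX5 knockout (9.99%), the DDX17 knockout (1.76%) or the HDAC7 knockout (6.5%). At an unadjusted p under 0.05 there were 0 in the DDX17 and HDAC7 deletions, 2 in the FNBP4 intron deletion and 3 in each of those knockouts.

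Libraries that did not overlap the controls were seen for 7 of the 10 genes in the HNRNPD deletion, against 38.9% of all genes. The genes' median log2 fold change there was 0.30, and 0.02 for all genes. The count was 3 of 10 in the DDX5 deletion (33.5% of all genes), the FNBP4 PTC exon deletion (33.8%), the DDX5 knockout (36.9%), the DDX17 knockout (29%) and the FNBP4 knockout (35.3%). It was 2 in the HDAC7 knockout (35.5%), 1 in the FNBP4 intron deletion (19.8%) and 0 in the DDX17 deletion (13.4%) and the HDAC7 deletion (10.8%). Medians over the 10 genes in the other comparisons ran from -0.14 in the DDX17 deletion to 0.24 in the DDX17 knockout, with -0.09 in the FNBP4 PTC exon deletion.

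By levels that allow for length, the 10 genes span a wide range. The authors' deposited RPKM in controls was 115.69 for HNRNPD, 109.14 for HNRNPDL, 102.56 for KHSRP, 92.08 for ZFP36L1, 74.64 for HNRNPAB and 68.48 for TIAL1. Below these came ELAVL1 at 45.6, TIA1 at 18.46, ZFP36L2 at 16.61 and ZFP36 at 4.25 RPKM. The pooled column has no replicate spread, so neighbours in this order cannot be separated.

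AUUUA pentamers are common in these messages themselves. Read as ATTTA in the annotated 3′ untranslated region, overlaps included and on the sense strand only, they were counted 13 times each in ELAVL1 and TIA1, 8 in ZFP36L1, 7 in HNRNPDL, 5 each in ZFP36 and ZFP36L2, 3 in HNRNPAB, 2 in HNRNPD, 1 in TIAL1 and 0 in KHSRP. Per kilobase, ZFP36 had 7.01 and HNRNPD 1.19. Of 18697 annotated genes 65.25% hold the pentamer, with a median of 1.45 per kilobase, and 8 of the 10 lay above that median. The longer TATTTAT stood in ELAVL1, ZFP36, ZFP36L1, ZFP36L2, TIA1 and TIAL1, and in 29.2% of all genes. A match describes letters and is no proof of a site.

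A list of 55 mRNAs known to carry AU-rich elements, of which 47 were measured, had 2 members higher and 9 lower in the HNRNPD deletion, where 4.55% and 4.32% of all genes were called in those directions. The list's median log2 fold change was -0.09, against 0.02 for all genes. CCND1, the G1 cyclin, fell to 643 ± 29.2 CPM in the HNRNPD deletion (SD, n = 2), against 1215 ± 142 CPM in controls (SD, n = 4), a log2 fold change of -0.91 (adjusted p = 0.0043). The kinase gene SGK1 fell to 47.8 ± 2.49 CPM, against 78.0 ± 2.98 CPM in controls, a log2 fold change of -0.70 (adjusted p = 0.000243). VEGFA, the angiogenic growth factor, rose to 159 ± 22.6 CPM against 89.6 ± 11.5 CPM, a log2 fold change of 0.83 (adjusted p = 0.00121).

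Of 52 deadenylation and decay factors, 47 were measured, and 5 rose and none fell in the HNRNPD deletion. The 4 with the smallest p were PAN2, a deadenylase subunit (0.72, adjusted p = 0.00941), TOB1, an adaptor of the deadenylase (0.88, adjusted p = 0.0230), YBX1, an mRNA-packaging protein (0.60, adjusted p = 0.0271), and CNOT3, a CCR4-NOT subunit (0.40, adjusted p = 0.0422), as log2 fold changes. Their means were 30.4, 5.53, 1122 and 70.0 CPM in the deletion, and 18.3, 3.06, 738 and 52.9 CPM in controls.

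The FNBP4 PTC exon deletion moved more of both lists, as it moved more genes. Of the AU-rich mRNAs 3 rose and 18 fell, beside 13.9% and 13% of all genes, and the median was -0.36 against 0.01. CDKN1A, the p21 inhibitor of cell-cycle kinases, fell to 83.2 ± 22.5 CPM, against 288 ± 60.2 CPM in controls (SD, n = 4 each), a log2 fold change of -1.81 (adjusted p = 2.45e-06). Log2 fold changes of the others named were -1.34 for CCND1 and -0.79 for SGK1, both called. Of the decay factors 13 rose and 5 fell, among them PAN3 (0.59), DCP2 (0.61), PTBP1 (-0.47) and TOB1 (-1.58).

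In the DDX5 deletion 6 AU-rich mRNAs rose and 9 fell, beside 7.22% and 9.68% of all genes. The cytokine gene IL1B rose there to 26.6 ± 1.74 CPM, against 16.3 ± 2.37 CPM in controls (SD, n = 4 each). ZC3H12A, an mRNA-degrading nuclease on both lists, fell to 2.44 ± 0.536 CPM, against 5.46 ± 1.21 CPM in controls. Of the decay factors 1 rose and 3 fell.

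The other comparisons changed fewer of the AU-rich mRNAs. Of the 47 measured, 3 rose and 6 fell in the DDX17 deletion (2.27% and 2.72% of all genes in those directions), 2 rose and 7 fell in the FNBP4 intron deletion (1.27% and 2.25%), and 2 rose and 3 fell in the HDAC7 deletion (1.04% and 0.861%). Among knockouts, 4 rose and 3 fell for DDX5 (5.89% and 4.11%), 1 rose and 2 fell for DDX17 (0.762% and 1%), 4 rose and 6 fell for FNBP4 (4.54% and 3.67%), and 2 rose and 6 fell for HDAC7 (3.43% and 3.07%). For the decay factors the counts higher and lower were 0 and 3 in the DDX17 deletion, 0 and 2 in the FNBP4 intron deletion and 0 and 1 in the HDAC7 deletion. In the knockouts they were 7 and 2 for DDX5, 3 and 0 for DDX17, 3 and 2 for FNBP4, and 2 and 2 for HDAC7. SGK1, lower in the HNRNPD deletion and the FNBP4 PTC exon deletion, was higher in the FNBP4 knockout and in the DDX5 knockout. It had 128 ± 9.96 CPM in the FNBP4 knockout and 115 ± 15.4 CPM in the DDX5 knockout (SD, n = 2 each). Controls had 78.0 ± 2.98 CPM (SD, n = 4). All comparisons share the same 4 control libraries, so their values are not independent.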

How the data were processed

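Total RNA of 34 libraries was sequenced after ribosomal depletion. The expression table, made by the authors with Salmon 1.10 and edgeR (version not given) per the submitters' processing notes, holds RPKM per hgRNA, log2 fold changes over pooled controls, and p-values with their FDR, all as deposited and with replicates combined. The splicing table deposited by the authors, from vast-tools per the file headers, gives percent spliced in or percent retained for each event in each library, beside quality strings from which whole junction reads were read (100% of spliced counts whole). No aligner, genome build or annotation is named in those notes or headers. All 65 introns of the 10 genes in that table have the positions of GENCODE v29 on GRCh38. Columns of 2 libraries outside the sample list were not used.

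Spliced-junction reads were summed over a gene's introns, so deposited RPKM was not tested. Genes needed 10 reads at the median depth in 2 libraries and 15 in all, which left 12081. They were scaled by TMM and fitted with limma 3.58.1 (voom, R 4.3.3) with a coefficient per group over all 34 libraries, giving 17 residual and 5.83 prior degrees of freedom. Edited hgRNAs were averaged and set against both controls, and a Benjamini-Hochberg adjusted p under 0.05 over all genes was a call. Events needed 20 reads in each library compared and were fitted with limma on log2((inclusion + 1)/(exclusion + 1)) and called past the same threshold with a shift of 10 points. Both steps were tested on simulated data. With 2 edited libraries, 39% of 1.5-fold and 97% of 2-fold gene changes were recovered, with 8 false calls. With 4 edited libraries these were 61% and 100%, with 7 false calls. For events, 95% of shifts of 25 points were recovered with 4 edited libraries. Smaller changes were not simulated. The simulated gene changes were in well-covered genes with a fixed spread and no library-wide differences, and the shifted events started from intermediate inclusion. Recovery was not simulated for genes with few reads, such as ZFP36, or for exons near full inclusion.

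The 10 genes, the lists and the tests were chosen with earlier results of these data known. The text names the 10 genes everywhere, up to 4 called members per list and comparison (given for the HNRNPD, FNBP4 PTC exon and DDX5 deletions, except some members that are not reported here), the 3 genes most like HNRNPD among those with a mean log2 CPM of at least 4, all events described for HNRNPD, called events, and cassette exons included at 10 to 90% in controls. Wilson intervals are at 95%, on reads as weighted in the quality strings. For a count of 0 the share of 3 reads over the total is given, which is below the true limit.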

Additional observations from a re-analysis of the deposited data

Results flagged for a closer look

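Of 60 sets of 4 libraries (10 genes in 5 deletions with 2 hgRNAs and in the controls), 10 had a library far from the other 3 by Dixon's criterion, where chance gives about 1 in 20. The sets that are deletions mix 2 hgRNAs, and explanations were not tested.

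In the FNBP4 PTC exon deletion the distant library was hgRNA 3 replicate 1 in 3 of them. HNRNPD stood at 408 CPM there, with 288 CPM in the nearest of the others. HNRNPAB stood at 208 CPM, with 124 CPM in the nearest, and ZFP36L2 at 3.34 CPM, with 7.80 CPM in the nearest.

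In the DDX17 deletion, replicate 2 of hgRNA 1 was distant for HNRNPDL (153 CPM, nearest 199), ELAVL1 (124 CPM, nearest 88.1) and ZFP36L2 (4.26 CPM, nearest 6.14). Replicate 1 of hgRNA 1 was distant for HNRNPAB (166 CPM, nearest 154).

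The rest were single cases. TIA1 stood at 33.2 CPM in one library of DDX5 deletion hgRNA 2, with 30.3 CPM in the nearest. ZFP36L1 stood at 19.3 CPM in one library of FNBP4 deletion hgRNA 1, with 22.9 CPM in the nearest. TIAL1 stood at 47.8 CPM in one library of HDAC7 deletion hgRNA 2, with 40.4 CPM in the nearest. No difference between the 2 hgRNAs of a deletion passed the test for any of the 10 genes.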

How the results depend on the processing

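Counts of the 10 genes called moved as follows. With only a comparison's own libraries fitted, the count was 4 in the DDX5 deletion (1 as reported), 1 in the DDX5 knockout (0), 1 in the FNBP4 intron deletion (0) and 1 in the FNBP4 PTC exon deletion (3). Against control hgRNA 2 alone it was 0 in the DDX5 deletion and 1 in the FNBP4 PTC exon deletion. With 1 intron per gene it was 0 in the FNBP4 knockout (1 as reported) and 1 in the FNBP4 PTC exon deletion. In the DDX5 knockout it was 1 with scaling by total reads, with limma trend, and without replicate 2 of hgRNA 1 of the controls, the DDX17 deletion and the HDAC7 deletion. Leaving out a replicate gave 0 to 2 in the DDX5 deletion, 0 to 1 in the FNBP4 intron deletion, 1 to 2 in the FNBP4 knockout, 0 to 4 in the FNBP4 PTC exon deletion, 0 to 1 in the HDAC7 knockout and 0 to 1 in the HNRNPD deletion. Called events of the 10 genes were 0 in the DDX5 deletion with a pseudocount of 0.5 and 0 whenever a replicate was left out (1 as reported), 1 in the HDAC7 knockout at 10 reads, and 2 in the HNRNPD deletion with no size limit (0 as reported). Leaving out a replicate gave 0 to 1 in the DDX17 knockout, the FNBP4 knockout and the FNBP4 PTC exon deletion. The causes were not tested.

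The log2 fold change of HNRNPD in the HNRNPD deletion ran from 0.09 to 0.47 over 14 alternatives and was never called. Exon 8 and exon 5 skipping kept an adjusted p of 0.000342 to 0.00858 and 0.000527 to 0.0115 over 9 alternatives. Replicate numbers did not pair the groups, since replicate differences correlated above 0.1 in only 28 of 136 group pairs (median -0.00638). Within the knockouts the values were 0.369 to 0.497, and among hgRNA 1 of the controls, the DDX17 deletion and the HDAC7 deletion 0.518 to 0.663. With a replicate block no count of genes or events called changed, and ZFP36L2 in the HNRNPD deletion stayed at 1.23. Depth limits ZFP36 most.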
